A study of Mus musculus with 2 samples.

Results

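The genes described here are 9 transcription factors of the pituitary lineages, *Pitx1*, *Pou1f1*, *Lhx3*, *Lhx4*, *Six6*, *Tbx19*, *Pax7*, *Neurod1* and *Nr5a1*. They were taken by symbol from the 32285 genes of single-cell RNA sequencing count tables of mouse optic nerves. All 9 symbols were found in both tables. They were listed by symbol and not by a measured value, but earlier results of these data were known when they were chosen. They were read in cells of the library FMC_new grouped by the share of their UMIs (unique molecular identifiers, each standing for 1 captured transcript) that came from the hormone genes *Gh*, *Prl*, *Pomc*, *Tshb*, *Lhb* and *Fshb*, and in cells of both libraries with little or none of these hormones.

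The anterior and intermediate lobes of the pituitary gland hold several hormone-producing cell types that arise from a common epithelial progenitor. Homeodomain factors such as *Pitx1*, *Lhx3*, *Lhx4* and *Six6* act early and broadly in that epithelium. Later factors separate the lineages: *Pou1f1* is needed for the growth hormone (*Gh*), prolactin (*Prl*) and thyrotropin (*Tshb*) cells, *Tbx19* for the cells that make pro-opiomelanocortin (*Pomc*), *Pax7* for the *Pomc* cells of the intermediate lobe, and *Nr5a1* for the gonadotropin (*Lhb*, *Fshb*) cells, while *Neurod1* acts in *Pomc* cells of the anterior lobe.

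The study examined drug treatment of optic pathway glioma in mice that model neurofibromatosis type 1, and used single-cell profiles to look for genes of the tumor cells. The series holds 2 libraries, C-ON and FMC_new, both labelled with the genotype NF1-OPG, which the methods give as Nf1 flox/mut; GFAP-Cre mice on a C57BL/6 background. These mice carry a germline mutant allele of *Nf1* in all cells, and the GFAP promoter, which is active in glia and their precursors, drives the Cre that removes the floxed allele. Each library came from optic nerves of 10 mice aged 12 weeks pooled into 1 suspension, so there is no replicate of either library, no unmutated library and no test between conditions. The title of C-ON holds the word control and that of FMC_new the abbreviation FMC, and what either denotes is not given in the sources used here.

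C-ON kept 8834 of 10845 barcodes with a median of 6810 UMIs, and FMC_new kept 16818 of 21341 with a median of 4676 UMIs, after the study's limits of 500 to 5000 genes, 500 to 20000 UMIs and at most 5% mitochondrial UMIs. The libraries share 296 barcode sequences. In FMC_new, 1465 cells (8.71% of those kept) passed a hormone gate, and 0 of the 8834 C-ON cells did. The gates were 10% of a cell's UMIs for *Gh* (378 cells) or *Prl* (252 cells), 2% for *Pomc* (781 cells), 1% for *Tshb* (12 cells) and 0.5% for *Lhb* with *Fshb* (33 cells), and a further 9 cells passed several gates. Cells under 0.5 of every gate, 14941 in FMC_new and 8833 in C-ON, are called hormone-low, and classes among them carry the ending "-like" after lists of marker genes.

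The label of these cells as optic nerve was set beside the defining genes of the pituitary. As the gates require, hormone genes supplied 46.5% of all UMIs of the *Gh*-gated cells, 38.2% in the *Prl* gate and 7.52% in the *Pomc* gate, against 0.529% in the T cell-like cells of the same library. Genes that the gates did not use, the receptors *Ghrhr*, *Crhr1* and *Avpr1b* and the secretory granule genes *Chgb* and *Scg2*, were 72.8-, 55.2-, 72.8-, 19.9- and 27.0-fold higher in gated than in hormone-low cells. How pituitary cells came into an optic nerve suspension was not tested. Of the gated cells 39.2% also held at least 3 markers of a non-pituitary class, most often of plasma cells and oligodendrocytes, and no doublet caller was run. Without those cells *Pou1f1* was found in 60.5% of *Gh*- or *Prl*-gated cells instead of 56.7%, and *Tbx19* in 81.4% of *Pomc*-gated cells instead of 78.6%. Without the barcodes that both libraries share the values were 56.4% and 78.8%.

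The promoters of *Prl*, *Pou1f1* and *Pomc* are shown because the first is a known target of *Pou1f1*, the second is known to be bound by its own product, and the third belongs to the hormone whose cells carried *Tbx19*. Each run is the 250 bases before the start site, 5′ to 3′ on the gene's strand, from RefSeq on GRCm38.p6, and capitals mark matches to a motif that was searched on both strands.
*Prl*, chr13:27057320-27057569, plus strand: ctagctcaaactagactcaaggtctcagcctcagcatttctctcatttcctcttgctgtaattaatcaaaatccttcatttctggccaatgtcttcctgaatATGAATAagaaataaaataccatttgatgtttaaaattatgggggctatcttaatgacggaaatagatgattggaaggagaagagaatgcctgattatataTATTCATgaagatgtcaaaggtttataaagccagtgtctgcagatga
*Pou1f1*, chr16:65520262-65520511, plus strand: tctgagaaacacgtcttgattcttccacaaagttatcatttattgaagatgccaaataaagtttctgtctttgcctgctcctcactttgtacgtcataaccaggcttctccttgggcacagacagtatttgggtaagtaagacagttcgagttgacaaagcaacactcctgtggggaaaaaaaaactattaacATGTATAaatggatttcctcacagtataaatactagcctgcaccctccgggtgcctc
*Pomc*, chr12:3954695-3954944, plus strand: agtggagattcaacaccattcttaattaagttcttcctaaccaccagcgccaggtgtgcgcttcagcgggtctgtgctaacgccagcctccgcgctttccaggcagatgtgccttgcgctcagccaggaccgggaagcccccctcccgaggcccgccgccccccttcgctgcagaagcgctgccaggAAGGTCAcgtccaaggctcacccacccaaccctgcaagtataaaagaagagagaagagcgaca
The *Prl* window held the letters ATGNATA, which stand for the sequence that *Pou1f1* protein is known to bind, as ATGAATA from position -148 to -142 and on the opposite strand from -47 to -41. The *Pou1f1* window held them as ATGTATA from -57 to -51, and a second RefSeq window of that gene, chr16:65523059-65523308, had no match. These letters occurred in 7.92% of 32851 mouse promoter windows of the same length. The *Pomc* window held AAGGTCA, the letters of an *Nr5a1* site, from -63 to -57, which 4.08% of windows hold, and neither TAATCC for *Pitx1* (6.25% of windows) nor TCACACC for T-box factors (3.33%) was found in it. A match is a run of letters and not a measured binding site. Only these 250 bases were searched, so a site farther from the start site could not be found. Windows were found for 7 of the 9 members.

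*Pou1f1* (chr16:65520511-65535005, plus strand) encodes the POU homeodomain factor of the *Gh*, *Prl* and *Tshb* lineages. A UMI of it was found in 215 of 378 *Gh*-gated cells (56.9%, exact Clopper-Pearson 95% interval 51.7 to 61.9) and in 142 of 252 *Prl*-gated cells (56.4%, 49.98 to 62.6). In the *Pomc* gate it was found in 18 of 781 cells (2.30%, 1.37 to 3.62). The *Gh* and *Prl* shares could not be told apart at the depth of the cells, and both lay far above the *Pomc* share. All such intervals cover counting error only.

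Free RNA released during dissociation puts stray UMIs in every droplet, so the T cell-like cells, in which these genes are not known to act, serve as the background. *Pou1f1* was found in 36 of 2908 T cell-like cells of FMC_new (1.24%, 0.869 to 1.71), and the *Pomc*-gate share overlapped that interval. Median depth was 8200 UMIs in the *Gh* gate, 4154 in the *Prl* gate, 8155 in the *Pomc* gate and 3400 in the T cell-like cells. At an equal 1000 UMIs per cell the *Pou1f1* share was 14.7% in the *Gh* gate, 21.2% in the *Prl* gate, 0.588% in the *Pomc* gate and 0.384% in the T cell-like cells. At equal depth the *Prl* share was thus the higher of the pair and both still lay above the *Pomc* and T cell-like shares, with 0, 2, 11 and 33 cells left out as too shallow.

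Summed over cells, *Pou1f1* reached 203.5 CPM (its UMIs scaled to all UMIs of the group) in the *Gh* gate (exact Poisson 95% interval 188.6 to 219.2), 328.2 in the *Prl* gate (300.3 to 358.1) and 3.37 in the *Pomc* gate (2.06 to 5.20). Because hormone transcripts fill much of each gated cell, the same sums were also scaled to non-hormone UMIs alone (non-hormone CPM). On that scale *Pou1f1* was 380.0 in the *Gh* gate and 531.2 in the *Prl* gate. The *Prl* to *Gh* ratio of 1.61 (1.44 to 1.81) became 1.40 on non-hormone UMIs, so the *Prl* gate stayed the higher of the pair.

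The *Tshb* gate had 3 of 12 cells with *Pou1f1*, and the *Lhb* or *Fshb* gate had 0 of 33, which allows a share of up to 9.09%. These gates are small, and the *Tshb* interval ran from 5.49% to 57.2%. In C-ON, *Pou1f1* was found in 2 of 8834 cells, both oligodendrocyte-like and with 1 UMI each.

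**Figure D1:**
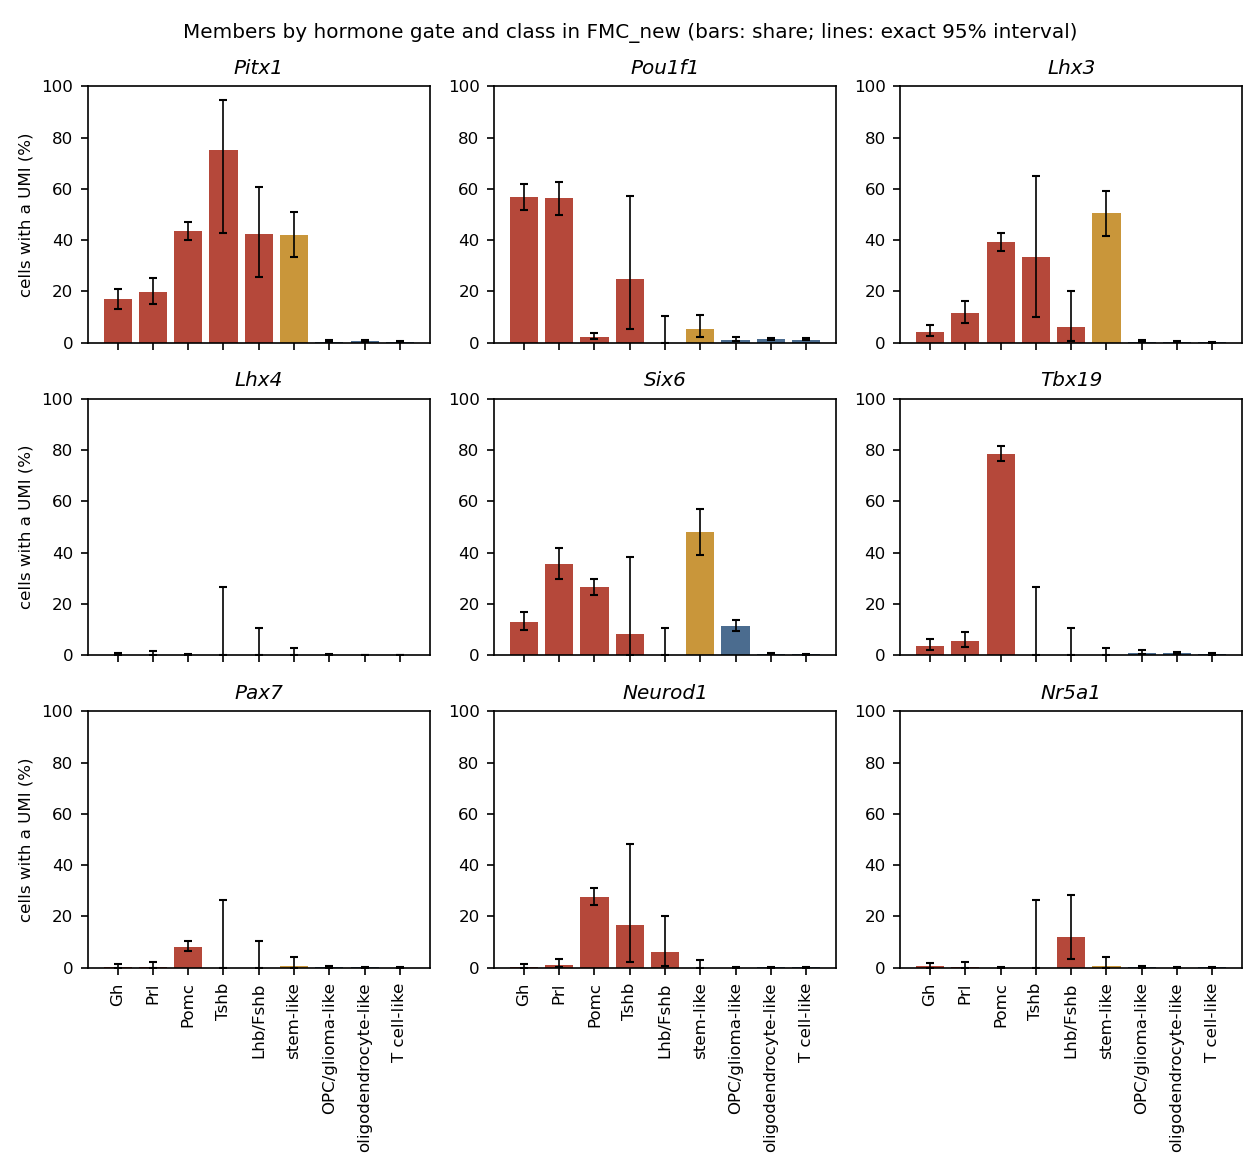
Share of cells with a UMI (%) of each of the 9 genes in the 5 hormone gates (red), in pituitary stem cell-like cells (yellow) and in OPC/glioma-like, oligodendrocyte-like and T cell-like cells (blue) of FMC_new. Bars are shares and lines exact 95% intervals. *Pou1f1* stands at 56.9% and 56.4% in the *Gh* and *Prl* gates, *Tbx19* at 78.6% in the *Pomc* gate, and *Six6* alone reaches 11.5% in the OPC/glioma-like cells.

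*Tbx19* (chr1:165137855-165160773, minus strand) encodes the T-box factor that activates *Pomc* transcription. It was found in 614 of 781 *Pomc*-gated cells (78.6%, 75.6 to 81.4), at 520.7 CPM (502.6 to 539.4). The share was 3.70% (2.04 to 6.14) in the *Gh* gate, 5.56% (3.07 to 9.15) in the *Prl* gate and 0.447% in the T cell-like cells. At 1000 UMIs per cell these values became 34.9% in the *Pomc* gate, 1.47%, 1.58% and 0.169%, so the low *Gh* and *Prl* shares stood above the T cell-like share at equal depth too.

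No *Tbx19* UMI was found in 12 *Tshb*-gated, 33 *Lhb*- or *Fshb*-gated or 129 pituitary stem cell-like cells, and the last count allows a share of up to 2.33%. C-ON held no *Tbx19* UMI in 8834 cells. In the 412 FMC_new cells between 0.5 and 1 times a gate, 161 (39.1%) carried *Tbx19*. That group pools cells near any gate, and its *Tbx19* cells were not split by hormone. In FMC_new 321 cells lay from 0.5 to 1 times the *Pomc* limit, against 87 for *Gh* and 26 for *Prl*. A further look at the *Pomc* limit found 121 cells from 0.8 to 1 times its value and 109 in the next like interval above it.

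*Pitx1* (chr13:55825051-55836192, minus strand), the homeodomain factor first known for its action on the *Pomc* promoter and now as an early factor of all anterior lineages, was found in every gate. Its share was 16.9% (13.3 to 21.1) in the *Gh* gate, 19.8% (15.1 to 25.3) in the *Prl* gate and 43.7% (40.2 to 47.2) in the *Pomc* gate. It was 9 of 12 cells (75.0%, 42.8 to 94.5) in the *Tshb* gate and 14 of 33 (42.4%, 25.5 to 60.8) in the *Lhb* or *Fshb* gate. The *Gh* and *Prl* shares overlapped each other, and both lay below the *Pomc* share.

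Summed levels of *Pitx1* put the small gates highest, at 611.5 CPM (468.8 to 783.9) for *Tshb* and 217.9 (145.9 to 313.0) for *Lhb* or *Fshb*. The *Pomc* gate followed at 94.9 CPM (87.2 to 103.1), then *Prl* at 40.8 (31.3 to 52.2) and *Gh* at 24.4 (19.5 to 30.3). Those 5 intervals did not overlap, but in non-hormone CPM the *Prl* gate at 66.0 (50.7 to 84.5) and the *Gh* gate at 45.7 (36.4 to 56.6) did. The T cell-like level was 1.09 CPM in 2908 cells, of which 12 (0.413%) carried a UMI, and at 1000 UMIs per cell the share was 1.85% in the *Gh* gate, 4.35% in the *Prl* gate, 8.28% in the *Pomc* gate and 0.109% in the T cell-like cells.

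*Lhx3* (chr2:26200212-26208289, minus strand) encodes a LIM homeodomain factor needed for the early pouch and for most anterior lineages. It was found in 307 of 781 *Pomc*-gated cells (39.3%, 35.9 to 42.8), in 29 of 252 *Prl*-gated cells (11.5%, 7.84 to 16.1) and in 16 of 378 *Gh*-gated cells (4.23%, 2.44 to 6.78). These 3 intervals did not overlap. At 1000 UMIs per cell the shares were 7.27%, 1.86% and 0.515% in that order, and 0.0402% in the T cell-like cells.

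*Lhx4* (chr1:155698031-155751684, minus strand), the close relative of *Lhx3* that acts with it in the pouch, gave almost no signal. It had 3 UMIs in 3 hormone-low cells of FMC_new and none in C-ON. It was not detectable at this depth in 1465 gated cells, where 0 cells allows a share of up to 0.205%.

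*Six6* (chr12:72939892-72944899, plus strand), a homeodomain factor of the eye field, hypothalamus and pituitary, had the largest ratio between the *Prl* and *Gh* gates of the 5 members tested there. It was found in 90 of 252 *Prl*-gated cells (35.7%, 29.8 to 42.0), in 207 of 781 *Pomc*-gated cells (26.5%, 23.4 to 29.8) and in 49 of 378 *Gh*-gated cells (12.96%, 9.75 to 16.8). Summed levels were 106.2 CPM (90.6 to 123.7) in the *Prl* gate, 48.0 (42.6 to 53.9) in the *Pomc* gate and 16.2 (12.2 to 21.1) in the *Gh* gate. The order *Prl*, *Pomc*, *Gh* held on both measures, and at 1000 UMIs per cell it was 9.29%, 4.16% and 1.41%, against 0.0746% in the T cell-like cells.

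*Nr5a1* (chr2:38692656-38714542, minus strand), the nuclear receptor of the gonadotropin lineage, was rare, with 47 UMIs in 35 cells of FMC_new. The *Lhb* or *Fshb* gate held it in 4 of 33 cells (12.1%, 3.403 to 28.2). It was found in 2 *Gh*-gated, 1 *Prl*-gated and 0 of 781 *Pomc*-gated cells. A set of 116 FMC_new cells below every gate, with *Cga*, the subunit shared by thyrotropin and the gonadotropins, at 0.25% of UMIs or more held 22 of the 35 cells (18.97% of the set, 12.3 to 27.3).

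Over all gates together, 7 of the 8 members with at least 20 UMIs were at least 4-fold higher than in hormone-low cells of FMC_new, where 9.68% of 19133 tested genes passed the same limit. The ratio of summed CPM was 77.0 (68.5 to 86.7) for *Tbx19*, 32.6 (28.7 to 37.2) for *Pou1f1* and 30.5 (20.9 to 45.5) for *Pax7*. It was 23.7 (19.6 to 28.8) for *Neurod1*, 15.3 (13.5 to 17.2) for *Pitx1*, 12.7 (11.0 to 14.6) for *Lhx3* and 6.92 (6.13 to 7.82) for *Six6*. The exception was *Nr5a1*, with a ratio of 1.93 (0.713 to 4.53), and *Lhx4* had too few UMIs. The hormone-low cells include pituitary stem cell-like cells, which held 110 of their 333 UMIs of *Lhx3* and 116 of their 566 of *Six6*. Of the 47 *Nr5a1* UMIs of FMC_new, 34 lay in the set of *Cga* cells below the gates. That set was drawn after the data were seen. With it left out of the hormone-low cells, *Nr5a1* had too few UMIs to be tested. The 7 members still tested were those that had passed before, and all 7 passed, beside 9.88% of all genes. The median log2 ratio of the 8 members was 4.25, beside -0.11 for all tested genes (0.28 when hormone UMIs were left out).

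Other pituitary genes, listed with earlier results of these data known, are given by their counts on the same comparison. All 6 granule and processing genes passed 4-fold, with a median log2 ratio of 3.92. All 7 hormone genes passed too (median 6.34), which the gates fixed for the 6 that define them and which is no finding. Of 9 releasing and inhibiting hormone receptors 7 had enough UMIs and 6 passed, the exception being *Trhr* at 2.81-fold. Of 13 further transcription factors 12 had enough UMIs and 7 passed, among them *Neurod4* (27.1-fold), *Insm1* (18.2-fold) and *Rxrg* (11.2-fold). *Sox2* and *Sox9*, genes of stem cells and glia, had ratios of 0.387 and 0.344.

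Between the *Pomc* gate and the *Gh* and *Prl* gates pooled, 4 of 7 tested members were at least 4-fold higher in the *Pomc* gate, where 7.22% of 14134 tested genes were. They were *Neurod1* at 92.1-fold (35.7 to 339.4), *Tbx19* at 64.3-fold (47.1 to 90.2), *Pax7* at 56.1-fold (15.2 to 468.0) and *Lhx3* at 6.87-fold (5.22 to 9.18). In the other direction 1 of 7 passed, beside 2.6% of all genes, and this was *Pou1f1* at 72.1-fold (46.5 to 118.4). *Pitx1* was 3.21-fold higher in the *Pomc* gate (2.67 to 3.88).

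The unequal hormone load of these gates moved the ratios. The median log2 ratio of all genes was 0.61 on all UMIs and -0.12 on non-hormone UMIs. On non-hormone UMIs *Neurod1* was at 55.9-fold, *Tbx19* at 39.0-fold, *Pax7* at 34.1-fold, *Lhx3* at 4.17-fold and *Pitx1* at 1.95-fold, and *Pou1f1* was 118.7-fold higher in the *Gh* and *Prl* gates. Of the 7 tested members, *Six6* alone changed direction, from 1.08-fold (0.904 to 1.30) to 0.657-fold for the *Pomc* gate over the other gates.

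Among the listed genes, *Crhr1* and *Avpr1b*, the receptors for corticotropin-releasing hormone and vasopressin, were 53.2- and 65.2-fold higher in the *Pomc* gate, 2 of the 4 receptors tested. *Ghrhr*, the receptor for growth hormone-releasing hormone, was the 1 of 4 higher in the *Gh* and *Prl* gates, with 827 UMIs there and 1 in the *Pomc* gate. Of 11 transcription factors tested outside the members, 2 passed toward the *Pomc* gate, among them *Foxl2*, and 3 toward the *Gh* and *Prl* gates, *Neurod4*, *Rxrg* and *Esr1*. *Rxrg* was at least 87.0-fold and *Neurod4* 86.0-fold higher there, the first against a floor of 3 counts over the *Pomc* gate.

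The *Prl* gate was set against the *Gh* gate after the data had been seen. Here 2 of 5 tested members were at least 4-fold higher in the *Prl* gate, *Six6* at 6.56-fold (4.80 to 9.07) and *Lhx3* at 4.89-fold (2.74 to 9.05), beside 1.74% of 11604 genes. *Pitx1* was at 1.67-fold (1.18 to 2.34) and *Pou1f1* at 1.61-fold. *Tbx19*, at 1.80-fold (0.909 to 3.51), could not be told from equal.

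Within the *Prl* gate, the summed levels of *Pou1f1* and *Six6* were higher in cells with more *Prl*. In non-hormone CPM *Pou1f1* was 279.1 in 69 cells with *Prl* at 10 to 20% of UMIs, 424.9 in 60 cells at 20 to 30%, 542.4 in 49 cells at 30 to 40% and 729.4 in 74 cells above. *Six6* was 68.4, 157.0, 186.5 and 226.8 in the same bins. Median depth moved with the bins, from 1877 to 3339, 6104 and 6944 UMIs, and its part in the result was not tested. All these cells came from 1 library.

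Within the *Gh* gate *Pou1f1* showed no such order. It was 344.8, 341.2, 430.6 and 357.3 non-hormone CPM in bins of 78, 100, 119 and 81 cells with *Gh* at 10 to 20, 20 to 40, 40 to 60 and over 60% of UMIs. *Lhx3* was 30.1 in the lowest of these bins and 11.3, 2.73 and 3.93 in the others. These levels rest on 9, 6, 2 and 1 UMIs, and the intervals of the lowest bin (13.8 to 57.2) and the next (4.13 to 24.5) overlapped.

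**Figure D2:**
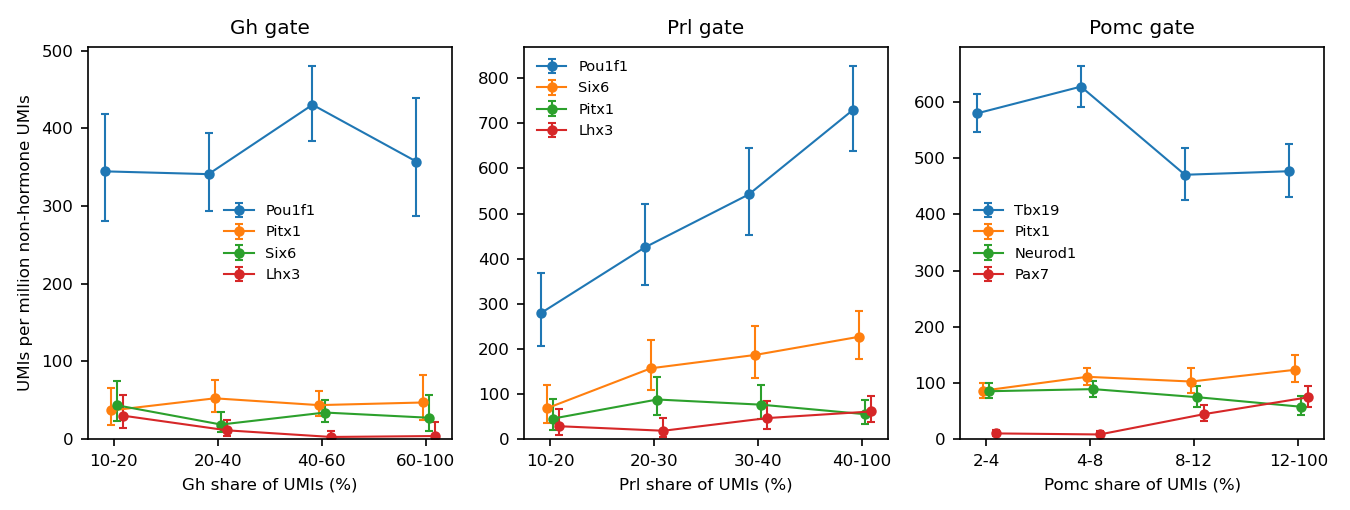
Level in UMIs scaled to non-hormone UMIs (non-hormone CPM, linear axes, a different range in each panel) of 4 genes against the share of UMIs from the gating hormone, in 4 bins of the *Gh*, *Prl* and *Pomc* gates of FMC_new, with points as summed levels and lines as exact Poisson 95% intervals. *Pou1f1* goes from 279.1 to 729.4 across the *Prl* bins and from 344.8 to 357.3 across the *Gh* bins, and *Pax7* from 10.1 to 74.3 across the *Pomc* bins.

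*Pax7* (chr4:139737062-139833528, minus strand), the paired-box factor that opens the melanotroph program in *Pomc* cells of the intermediate lobe, was found in 64 of 781 *Pomc*-gated cells (8.2%, 6.37 to 10.3). It was found in 1 *Gh*-gated cell, 1 *Prl*-gated cell and in none of the 2908 T cell-like cells, a count that allows at most 0.103%. *Neurod1* (chr2:79452521-79456751, minus strand), a basic helix-loop-helix factor of *Pomc* and neural cells, was found in 216 *Pomc*-gated cells (27.7%, 24.6 to 30.9), in 1 *Gh*-gated and 3 *Prl*-gated cells and in 3 T cell-like cells. *Neurod1* overlaps the gene *Cerkl* on the same strand, and the effect of that overlap on its counts was not tested.

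*Pax7* and *Neurod1* were found together in 1 *Pomc*-gated cell. The cells with *Pax7* had a median *Pomc* share of 11.2% of UMIs, and the 717 without it 4.38%. Of the 64 cells with *Pax7*, 96.9% held *Pcsk2*, a convertase that trims *Pomc* products in the intermediate lobe, 75.0% held the dopamine receptor *Drd2*, and 7.81% and 1.56% held *Crhr1* and *Avpr1b*. Of the 216 with *Neurod1*, 63.0% held *Crhr1*, 59.3% *Avpr1b*, 7.41% *Pcsk2* and 1.85% *Drd2*. Thus *Pcsk2* and *Drd2* lay with *Pax7*, and *Crhr1* and *Avpr1b* with *Neurod1*. *Pcsk1*, another of the listed processing genes, was found on both sides, in 42.2% of the cells with *Pax7* and 63.4% of those with *Neurod1*. Depth was alike, with medians of 9922 and 9842 UMIs.

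After these counts had been seen, the *Pomc* gate was divided by the 4 genes *Pcsk2*, *Drd2*, *Crhr1* and *Avpr1b*, and the members were read in each group. In 110 cells with *Pcsk2* or *Drd2* only, *Pax7* was found in 57 (51.8%, 42.1 to 61.5) and *Neurod1* in 1 (0.909%). In 397 cells with *Crhr1* or *Avpr1b* only, *Pax7* was found in 0, which allows a share of up to 0.756%, and *Neurod1* in 151 (38.0%, 33.2 to 43.0). This division restates the counts above, from which it was chosen, and adds no support to them. The 35 cells with both kinds held *Pax7* in 5 and *Neurod1* in 18, and the 239 with neither, at a median of 2285 UMIs, held *Pax7* in 2 and *Neurod1* in 46.

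*Tbx19* spanned the division at unequal levels. It was found in 66.4% (56.7 to 75.1) of the *Pcsk2* or *Drd2* cells at 181.7 CPM (154.9 to 211.8) and in 94.2% (91.4 to 96.3) of the *Crhr1* or *Avpr1b* cells at 611.8 CPM (586.9 to 637.4). *Six6* lay the other way in level, at 88.1 CPM (69.7 to 109.8) and 39.6 CPM (33.5 to 46.6), while its shares of 34.5% (25.7 to 44.2) and 29.97% (25.5 to 34.7) overlapped. *Pitx1* at 90.3 and 99.3 CPM and *Lhx3* at 90.3 and 84.1 CPM could not be told apart between these groups. Median depths were 8350 and 9490 UMIs.

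Across bins of the *Pomc* share the same genes parted again. *Pax7* was 10.1 and 8.24 non-hormone CPM in 324 cells at 2 to 4% and 256 cells at 4 to 8% *Pomc*, and 44.3 and 74.3 in 100 cells at 8 to 12% and 101 cells above. *Tbx19* was 580.0 and 627.7 in the lower bins and 470.7 and 477.0 in the higher. *Neurod1* was 85.2, 89.0, 74.6 and 57.5. *Pax7* was thus high where *Tbx19* was lower.

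**Figure D3:**
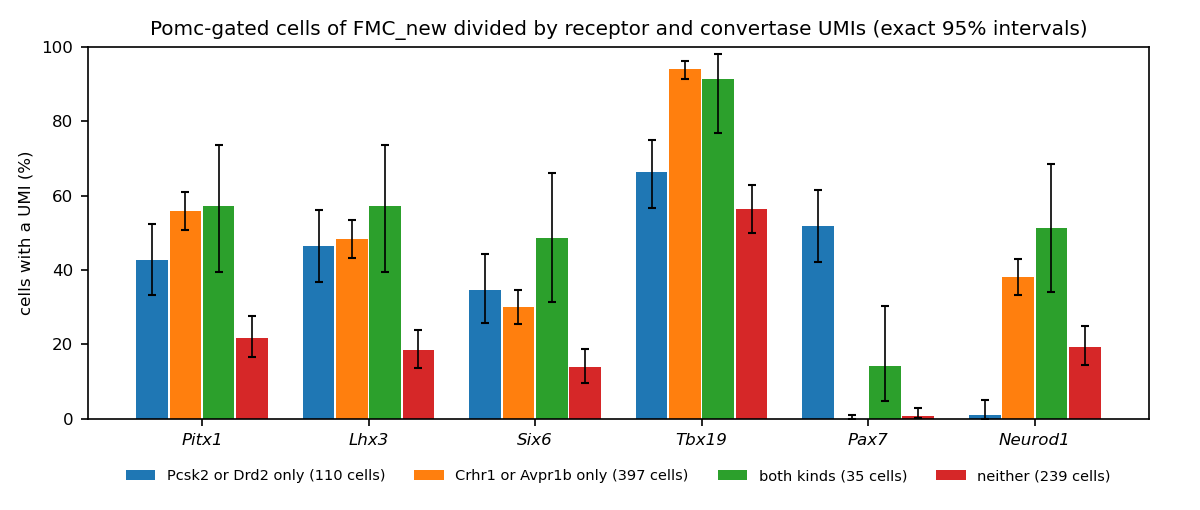
Share of *Pomc*-gated FMC_new cells with a UMI (%) of 6 genes, divided by UMIs of *Pcsk2* or *Drd2* (110 cells), of *Crhr1* or *Avpr1b* (397 cells), of both kinds (35 cells) or of neither (239 cells). Bars are shares and lines exact 95% intervals. *Pax7* is at 51.8% in the first group and 0 in the second, *Neurod1* at 0.909% and 38.0%.

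Members were also counted per cell. At least 1 of the 9 was found in 61.4% (56.3 to 66.3) of *Gh*-gated, 68.7% (62.5 to 74.3) of *Prl*-gated and 88.3% (85.9 to 90.5) of *Pomc*-gated cells, where the T cell-like share was 2.51% (1.97 to 3.15). At least 3 were found in 6.09%, 19.1% and 45.3% of the gates and in 1 T cell-like cell. Of the 216 *Pomc*-gated cells with *Neurod1* 200 also held *Tbx19*, and of the 90 *Prl*-gated cells with *Six6* 74 held *Pou1f1*. Deeper cells give more of any such pairs, so they are counts and not a measure of linkage.

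The 129 pituitary stem cell-like cells of FMC_new, hormone-low cells with at least 3 of *Cyp2f2*, *Aldh1a2*, *Mia*, *Cpxm2* and *Cdh26*, carried *Lhx3*, *Six6* and *Pitx1* more often than the other members. *Lhx3* was found in 65 (50.4%, 41.5 to 59.3), *Six6* in 62 (48.1%, 39.2 to 57.0) and *Pitx1* in 54 (41.9%, 33.2 to 50.9). *Pou1f1* was found in 7 (5.43%, 2.21 to 10.9), *Pax7* and *Nr5a1* in 1 each, and *Tbx19*, *Neurod1* and *Lhx4* in 0. Median depth was 5177 UMIs, below that of the *Gh* and *Pomc* gates.

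By summed level the stem cell-like cells held 144.4 CPM of *Lhx3* (118.7 to 174.0), 152.3 of *Six6* (125.8 to 182.6) and 107.6 of *Pitx1* (85.6 to 133.6). For *Lhx3* this was above the 80.6 CPM of the *Pomc* gate (73.5 to 88.1). For *Six6* it was above every gate by interval, and on non-hormone UMIs the 153.5 of the stem cell-like cells and the 171.8 of the *Prl* gate changed places. For *Pitx1* it lay between the *Pomc* and *Lhb* or *Fshb* gates and overlapped the *Pomc* interval. From a list of further factors, *Sox9* was found in 75.2%, *Eya1* in 59.7% and *Sox2* in 37.2% of these cells, and in at most 0.413% of T cell-like cells.

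*Six6* was the 1 member with a sizeable share in a class of the nerve itself. Among 872 OPC/glioma-like cells of FMC_new, oligodendrocyte precursors and tumor cells that share *Pdgfra* and *Cspg4*, it was found in 100 (11.5%, 9.43 to 13.8), at 23.5 CPM (19.4 to 28.1). In C-ON, which had no gated cell, it was found in 14 of 150 (9.33%, 5.20 to 15.2), at 16.9 CPM (9.25 to 28.4). The libraries overlapped. The oligodendrocyte-like share was 0.636% in FMC_new and 0.132% in C-ON, and 0 of 756 T cell-like cells of C-ON held *Six6*, which allows up to 0.397%.

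The depth of the OPC/glioma-like cells, a median of 5776 UMIs in FMC_new and 5089 in C-ON, was below that of the oligodendrocyte-like cells. At 1000 UMIs per cell the *Six6* share was 2.27% in FMC_new and 2.10% in C-ON. In FMC_new it was 12.0% in 682 of these cells with *Neu4* and 9.47% in 190 without, with levels of 23.8 CPM (19.4 to 28.9) and 21.9 CPM (13.2 to 34.2) that overlapped. In 31 cells with the proliferation gene *Mki67* it was found in 5. The other 8 members together gave no such signal in this class: the highest share was 1.15%, for *Pou1f1*, at the level of the T cell-like cells.

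Neuron-like cells were few and also held *Six6*, in 13 of 18 cells of C-ON (72.2%, 46.5 to 90.3) and 14 of 22 of FMC_new (63.6%, 40.7 to 82.8). The 22 cells of FMC_new also held *Pitx1* and *Lhx3*, in 9 each, against 1 each of the 18 in C-ON. The 2 classes are thus not alike in the other members. In the 13 C-ON cells *Six6* had from 1 to 8 UMIs with a median of 2, and no other member had a UMI. Of these 13, 12 held *Slc32a1*, a transporter of GABA neurons, and 12 held *Syt10*, 11 *Prokr2* and 8 *Nms*, genes known from neurons of the suprachiasmatic nucleus above the optic chiasm. *Lhx1* and *Drd1* were found in 7 of the 13 each, *Avp* in 6 and *Vip* in 3. These neuron genes were chosen after the data were seen. The photoreceptor gene *Sag* and the ganglion cell genes *Rbpms* and *Pou4f1* were at 0 in them. In FMC_new, 10 of the 14 cells held *Syt10*, 10 *Slc32a1*, 9 *Prokr2*, 7 *Avp*, 6 *Nms* and 5 *Drd1*. *Vip* and *Lhx1* were found in 1 each. Of the same 14 cells 4 held *Pitx1*, 5 *Lhx3*, 3 *Tbx19* and 2 *Pou1f1*.

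**Figure D4:**
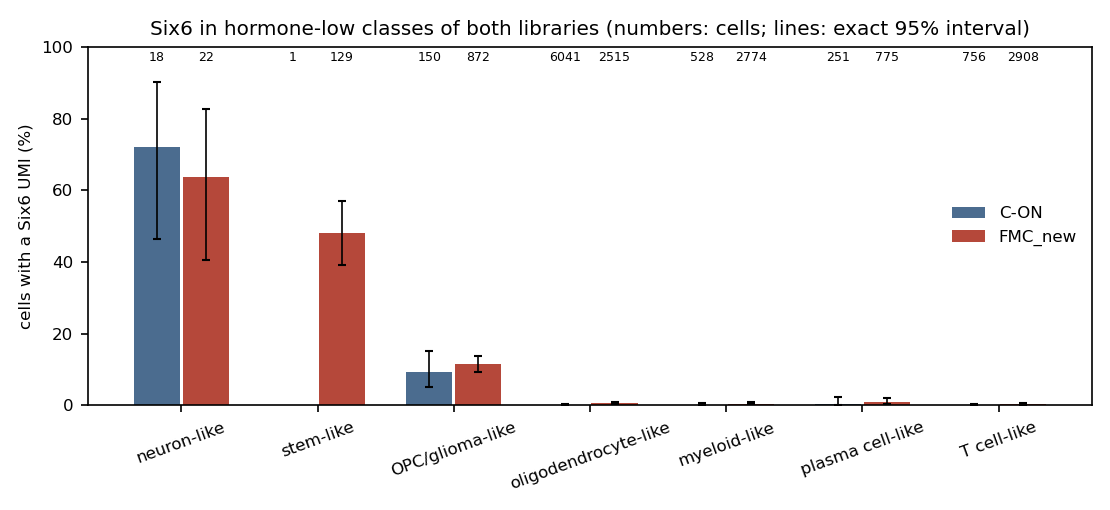
Share of cells with a *Six6* UMI (%) in 7 hormone-low classes of C-ON (blue) and FMC_new (red), with the number of cells above each bar and exact 95% intervals as lines. C-ON has 1 stem-like cell, without *Six6*, and no interval is drawn for it. Neuron-like cells stand at 72.2% and 63.6%, OPC/glioma-like cells at 9.33% and 11.5%, and the oligodendrocyte-like, myeloid-like, plasma cell-like and T cell-like cells near 0. The FMC_new neuron-like class also held *Pitx1* and *Lhx3*, each in 9 of 22 cells.

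The UMIs of each member in hormone-low classes were set beside the number that free hormone RNA would bring. For each class its *Gh*, *Prl* and *Pomc* UMIs were multiplied by the member's UMIs per hormone UMI in the gate of that hormone. In the T cell-like cells this gave 31.1 UMIs of *Pou1f1* where 41 were counted (29.4 to 55.6), and 18.5 of *Tbx19* where 24 were counted (15.4 to 35.7). For *Pitx1* it gave 6.95 against 13 counted (6.92 to 22.2), and for *Six6* 6.61 against 10 (4.80 to 18.4). For all 4 genes the value from the gate ratio lay within the counting interval, and below the count. It lay within the interval for *Lhx3*, *Pax7* and *Neurod1* too. For *Nr5a1* it gave 0.0802 against 3 counted (0.619 to 8.77), and for *Lhx4* 0 against 1 (0.0253 to 5.57), both outside.

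In the OPC/glioma-like cells the ratio gave 2.33 UMIs of *Six6* where 119 were counted (98.6 to 142.4), and 9.68 of *Pou1f1* where 12 were counted (6.20 to 21.0). In the stem cell-like cells it gave 0.332 of *Lhx3* against 110, 0.583 of *Pitx1* against 82 and 0.936 of *Six6* against 116. *Pou1f1* in those cells had 8 UMIs (3.45 to 15.8) against 3.69. Plasma cell-like cells, at 12590 UMIs the deepest class, held 19 of *Pitx1* (11.4 to 29.7) against 2.15. Other counts above the ratio were 25 of *Pou1f1* against 8.47, 20 of *Tbx19* against 6.44 and 12 of *Six6* against 1.93 in the plasma cell-like cells, 23 of *Six6* against 5.70 in the oligodendrocyte-like cells and 22 of *Pitx1* against 7.68 in the myeloid-like cells. The 22 neuron-like cells had 21 UMIs of *Neurod1* against 0.244, 27 of *Pou1f1* against 0.629 and 17 of *Tbx19* against 1.72. Counts above the gate ratio were thus not limited to the stem cell-like and OPC/glioma-like cells.

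**Figure D5:**
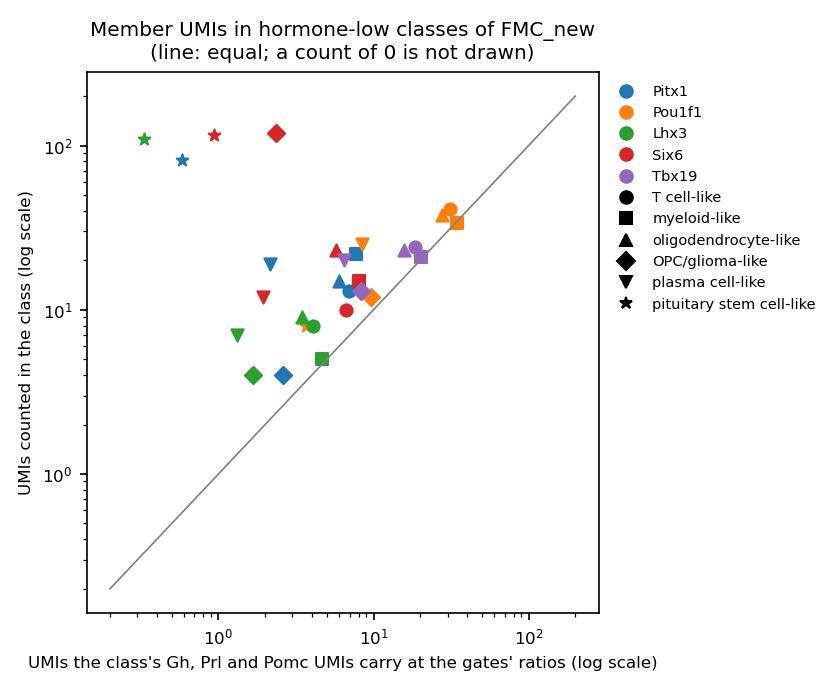
UMIs of 5 members counted in 6 hormone-low classes of FMC_new (y axis, log scale) against the UMIs that the hormone UMIs of the class carry at the gates' ratios (x axis, log scale). Color marks the gene, shape the class, and the line equality, and counts of 0 are not drawn. *Pou1f1* and *Tbx19* of the T cell-like cells sit near the line at 41 against 31.1 and 24 against 18.5, and *Six6* of the OPC/glioma-like cells far above it at 119 against 2.33.

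Of all cells of FMC_new with a UMI of a member, the gates held 72.8% for *Pax7*, 66.8% for *Tbx19*, 64.9% for *Neurod1*, 61.1% for *Pou1f1*, 59.3% for *Pitx1*, 55.3% for *Lhx3*, 44.8% for *Six6* and 20% for *Nr5a1*. C-ON held 115 UMIs of *Pitx1* in 27 cells and 102 of *Six6* in 52 cells. It held at most 7 UMIs of every other member, and none of *Tbx19*, *Pax7* or *Lhx4*. *Pitx1* and *Six6* were thus the members with the most UMIs in C-ON. In hormone-low cells the FMC_new and C-ON shares were 1.58% and 0.294% for *Pitx1*, 1.45% and 0.0226% for *Pou1f1*, 1.42% and 0.0679% for *Lhx3*, and 2.52% and 0.589% for *Six6*. *Tbx19* was at 1.06% in FMC_new and at 0 in C-ON. Every one of these shares was higher in the library that held the gated cells, and hormone genes made up 0.413% of its hormone-low UMIs against 0.0020% in C-ON.

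The genes whose level was most like each member's over the 15 hormone gates and hormone-low classes of FMC_new with at least 50 cells were found among 14166 candidates by Pearson's r of log2(CPM + 1). The 15 points share 1 library and differ in depth, so r is a description. For *Tbx19* they were *Cpne5* (r = 0.971), *Crhr1* (0.967) and *Srxn1* (0.957), for *Pou1f1* *Gm14618* (0.965), *A830018L16Rik* (0.920) and *Entpd3* (0.905), and for *Pitx1* *Fam183b* (0.957), *Smim22* (0.954) and *Dmrta2* (0.946). For *Lhx3* they were *Kdf1* (0.955), *Tmem184a* (0.955) and *Rab25* (0.951), genes of epithelia, and for *Six6* *Asb4* (0.961), *Zcchc12* (0.947) and *4930447C04Rik* (0.944), the last of which overlaps *Six6* on the opposite strand. For *Pax7* they were *Rprml* (0.921), *Aloxe3* (0.910) and *Tuba8* (0.902), and for *Neurod1*, whose values were the lowest, *Sv2b* (0.860), *Etnppl* (0.828) and *Oacyl* (0.821). Among the members themselves the highest values were 0.841 for *Lhx3* with *Six6* and 0.825 for *Pitx1* with *Six6*, and the lowest -0.12 for *Pou1f1* with *Neurod1*.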

How the data were processed

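Optic nerve libraries C-ON and FMC_new were made with the 10x 5′ v2 kit from pools of 10 mice. The authors counted UMIs per gene and barcode with Cell Ranger (7.2.0 per the submitters' processing notes, on mm10; the study's methods name an earlier version) and deposited raw counts for called barcodes, without normalization. Whether intronic reads were counted is not given in the sources used here. Totals were 85101211 UMIs in C-ON and 129113325 in FMC_new. Cells were kept by the study's limits and grouped by gates on hormone share of UMIs. A hormone-low cell joined a class with at least 3 of its markers detected and at least 2 more than of any other class. Both libraries are of 1 group, so there is no test. Shares carry exact Clopper-Pearson and sums exact Poisson 95% intervals, and depth is equalized by the exact expected share at 1000 UMIs. A gene was called at a CPM ratio of at least 4 with at least 20 UMIs over the compared groups. A group at 0 was set to 3 counts.

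The genes named are the 9 members, the listed hormones, receptors, granule genes and factors, and for each member with at least 100 UMIs the 3 genes of at least 200 UMIs most like it. The members and lists were chosen with earlier results of these data known. Genes of neurons were chosen after values were seen. The values of 3 further genes are not reported here. Positions are from GENCODE vM21 (GRCm38) and promoters from RefSeq (GRCm38.p6). Doublets were not removed and no caller was run. The fold step was checked on simulated data. Alternatives were barcode limits, gates, depth, mixed cells, denominator, fold limit, count minimum and comparison class. Computation used scipy 1.17.1, numpy 2.4.6, pandas 2.3.3 and matplotlib 3.10.9 under Python 3.11.15.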

Additional observations from a re-analysis of the deposited data

Results flagged for a closer look

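Barcodes of FMC_new outside the limits on cells, which the comparisons above do not use, carried *Pou1f1* as well. Among 403 such barcodes past the *Gh* or *Prl* gate, 204 (50.6%, 45.6 to 55.6) held a UMI of it, at a median of 3217 UMIs, where 2 of 8834 C-ON cells did. The 230 past the *Gh* gate, at a median of 1816 UMIs, held it in 92 (40%, 33.6 to 46.6). Of those 230, the 85 over 20000 UMIs, at a median of 24670, held it in 75. The 170 past the *Prl* gate, at a median of 21290 UMIs, held it in 111 (65.3%, 57.6 to 72.4) and held *Six6* in 89 (52.4%, 44.6 to 60.1). The 120 barcodes past the *Pomc* gate held *Tbx19* in 74 (61.7%, 52.4 to 70.4) and *Pax7* in 25 (20.8%, 14.0 to 29.2).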

How the results depend on the processing

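No paired analysis was possible because the 2 libraries are of 1 group and no result comes from a test. The *Pou1f1* share of *Gh*- or *Prl*-gated cells, 56.7%, was 65.3% without upper limits on genes and UMIs, 52.3% with gates halved and 64.2% with gates doubled. The *Tbx19* share of *Pomc*-gated cells, 78.6%, was 72.2% with gates halved and 82.1% with gates doubled, and the *Pitx1* share of all gated cells, 32.6%, was 37.8% without upper limits and 35.2% without cells that held 3 markers of a non-pituitary class. The cause was not tested. Thinning lowers every share by its construction: at 1000 and 2000 UMIs *Pou1f1* was 17.3% and 30.9%, *Tbx19* 34.9% and 55.7%, and *Pitx1* 6.37% and 11.8%. These 3 shares moved by less than their intervals under the other settings, which include all deposited barcodes and, chosen after seeing the data, the removal of shared barcodes. The count of members past 4-fold was 6 to 8 under 15 alternatives, beside 4.69% to 22.2% of all genes. Member shares in hormone-low cells summed over both libraries depend on which library enters: that of *Pitx1*, 1.10%, was 1.58% without C-ON and 0.294% without FMC_new, that of *Pou1f1*, 0.921%, was 0.0226% without FMC_new, and that of *Tbx19*, 0.665%, was 0. Gates of 12 and 33 cells limit the *Tshb* and gonadotropin values.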

Other observations

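C-ON held 11 cells below every gate with *Cga* at 0.25% of UMIs or more, a limit set after the data were seen. *Pitx1* was found in all 11, with 1 to 24 UMIs per cell and a median of 5, at 1030 CPM (824.1 to 1272). *Tshb* was found in 9 of them, *Isl1* in 10, *Lhx3* in 4, *Neurod1* in 2 and *Nr5a1* in 1, and *Chga*, *Chgb* and *Cck* in all 11. *Gh*, *Prl*, *Pou1f1*, *Six6*, *Tbx19* and *Pax7* were at 0 in them, where a count of 0 in so few cells allows large shares. *Pou1f1* was thus not detected in the 9 C-ON cells with both *Tshb* and *Cga*, while 3 of the 12 *Tshb*-gated cells of FMC_new held it.

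In FMC_new, 116 such cells held *Pitx1* in 58 (50%, 40.6 to 59.4), *Lhx3* in 34 (29.3%, 21.2 to 38.5), *Neurod1* in 24 (20.7%, 13.7 to 29.2), *Nr5a1* in 22, *Six6* in 19 and *Pou1f1* in 14 (12.1%, 6.76 to 19.4). *Neurod1* reached 149.9 CPM (122.2 to 182.0) there, above the 74.5 CPM (67.8 to 81.8) of the *Pomc* gate. The source of these cells was not tested.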
